A study of Rattus norvegicus with 6 samples.

Results

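Tubular injury marker genes were examined in whole kidney RNA of Cy/+ and +/+ rats. The genes are Lcn2, Havcr1, Clu, Spp1, Cd44, Cd24, Vcam1 and Smoc2, taken by name, and all 8 have a probe set annotated to them alone, with 12 such probe sets among the 31099 on the array. Signals of different probe sets are not on a common scale, so levels are compared between the genotypes and not between genes. All 6 samples came from male Han:SPRD rats, 3 heterozygous Cy/+ and 3 wild-type +/+, with 1 array per sample. Cy/+ rats carry 1 copy of a missense mutation in Anks6 and develop slowly progressing polycystic kidneys. The labels give an age of 10 weeks for both genotypes, while the methods of the study give a younger age for the array samples. Whether the samples are 6 different animals is not given in the sources used here, and the tests then cover the variation among these 6 arrays, some of which may be technical.

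Tubule cells that are stretched, starved of oxygen or poisoned change their transcript programme: transport genes of the differentiated cell fall and a set of secreted, adhesion and repair genes comes on. Several products of this set are shed into urine or plasma and serve as clinical markers of tubular damage. Lcn2 encodes lipocalin 2, also called NGAL, a secreted protein that binds iron-carrying siderophores. Havcr1 encodes KIM-1, a receptor for phosphatidylserine with which injured proximal tubule cells take up dying neighbours, and Clu encodes clusterin, a secreted chaperone. Spp1 encodes osteopontin, a secreted phosphoprotein that binds integrins and CD44, and Cd44 encodes that receptor, whose main ligand is hyaluronan. Cd24 encodes a small surface sialoglycoprotein of distal and regenerating tubule cells, Vcam1 an adhesion molecule that leukocytes hold through an integrin, and Smoc2 a matrix-associated protein of the SPARC family.

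The upstream sequence of these genes is shown where it holds a match to the NF-kB consensus, because transcripts of NF-kB subunits were measured on the same arrays and are described below. RefSeq sequence of the assembly GRCr8 was at hand for 6 of the 8 genes, and Clu and Smoc2 had no entry. The 250 bases before the listed transcript start were searched on both strands for the NF-kB consensus and for shorter motifs. Of 33469 rat promoters of this length 3.54% held the NF-kB consensus, and so did those of Lcn2, Cd24 and Vcam1. The TATA box, TATAAA, was held by 12.9% of promoters and by those of Spp1 and Vcam1. The AP-1 motif TGANTCA stood in 6.34% of promoters and in none of the 6. The STAT motif TTCNNNGAA stood in 7.67% and the RUNX motif TGTGGT in 14.5% of promoters, and likewise in none of the 6. The 250 bases of Vcam1 (chr2:206742784-206743033, minus strand) and 30 bases around the matches of Lcn2 (chr3:36082001-36082030, minus strand) and Cd24 (chr20:48656274-48656303, plus strand) are written 5′ to 3′ in the direction of the gene, with matches in capitals. In Vcam1 the first capitals are the NF-kB match, 93 to 84 bases before the start, and the second are overlapping TATAAA matches of both strands.
Vcam1: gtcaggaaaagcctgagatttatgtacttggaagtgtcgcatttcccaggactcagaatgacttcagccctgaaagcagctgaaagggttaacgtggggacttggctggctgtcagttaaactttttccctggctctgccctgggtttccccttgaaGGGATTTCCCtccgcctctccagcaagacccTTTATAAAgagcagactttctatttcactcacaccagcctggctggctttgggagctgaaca
Lcn2: gggctctgGGAATGTCCCttcagctccccc
Cd24: tggccgcctcGGGACATCCCaagtcacccg
A match of letters describes the sequence and says nothing of binding in these kidneys.

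All 8 genes were higher in Cy/+ than in +/+ kidneys by their brightest probe set, from 2.20-fold for Vcam1 to 34.6-fold for Lcn2, and their median log2 fold change was 3.01. For each of the 8, every Cy/+ array lay above every +/+ array. This count is read against a background of wide change: of the 10645 genes tested, 66.7% passed the threshold, 37.4% higher and 29.3% lower in Cy/+ kidneys, by limma with Benjamini-Hochberg adjustment over 18625 probe sets, 41.5% had all Cy/+ arrays above all +/+ arrays, and the median log2 fold change was 0.090. Genes past the threshold and more than 2-fold higher made up 12.6% of the genes tested, against all 8 of the injury genes. Counted by probe set, 35.8% of those tested were higher and 31.3% lower, and 9 of the 11 tested probe sets of the injury genes were higher. In these bulk samples a change in the share of a cell type and a change in RNA per cell cannot be told apart.

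Control signals also differed between the genotypes. The 18 probe sets of hybridization controls, added to the labelled sample, were brighter on every Cy/+ array by a median of 1.83-fold, and the 24 of poly-A controls, added to the RNA, by a median of 3.82-fold. For beta-actin the 3′ probe set was brighter than the 5′ one by 1.51-fold ± 0.0057 in +/+ and by 3.22-fold ± 0.26 in Cy/+ kidneys (SD, n = 3 each), a ratio that falls with intact RNA and full-length labelling. Of the 8 genes, all had a fold change above the median of the hybridization controls and 6 above that of the poly-A controls, with Cd24 and Vcam1 below it. These medians are taken over the fold changes of the control probe sets. Centring arrays on the controls, as below, uses another measure, the median control signal of each array. It moved the median log2 fold change of all probe sets by -0.98 for the hybridization and -1.49 for the poly-A controls. The part of labelling or RNA quality in the fold changes was not tested. The kidney transcripts Umod (17910 ± 822 in +/+, 14997 ± 3543 in Cy/+, SD, n = 3) and Cdh16 (5467 ± 147 in +/+, 7091 ± 959 in Cy/+, SD, n = 3) were bright in both genotypes. Slc12a1 and Aqp2 did not pass. Others were lower in Cy/+ kidneys: Lrp2 (8005 ± 278 in +/+, 3149 ± 1377 in Cy/+, SD, n = 3) and Nphs1 (204 ± 25 in +/+, 83.9 ± 19.2 in Cy/+, SD, n = 3).

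**Figure D1:**
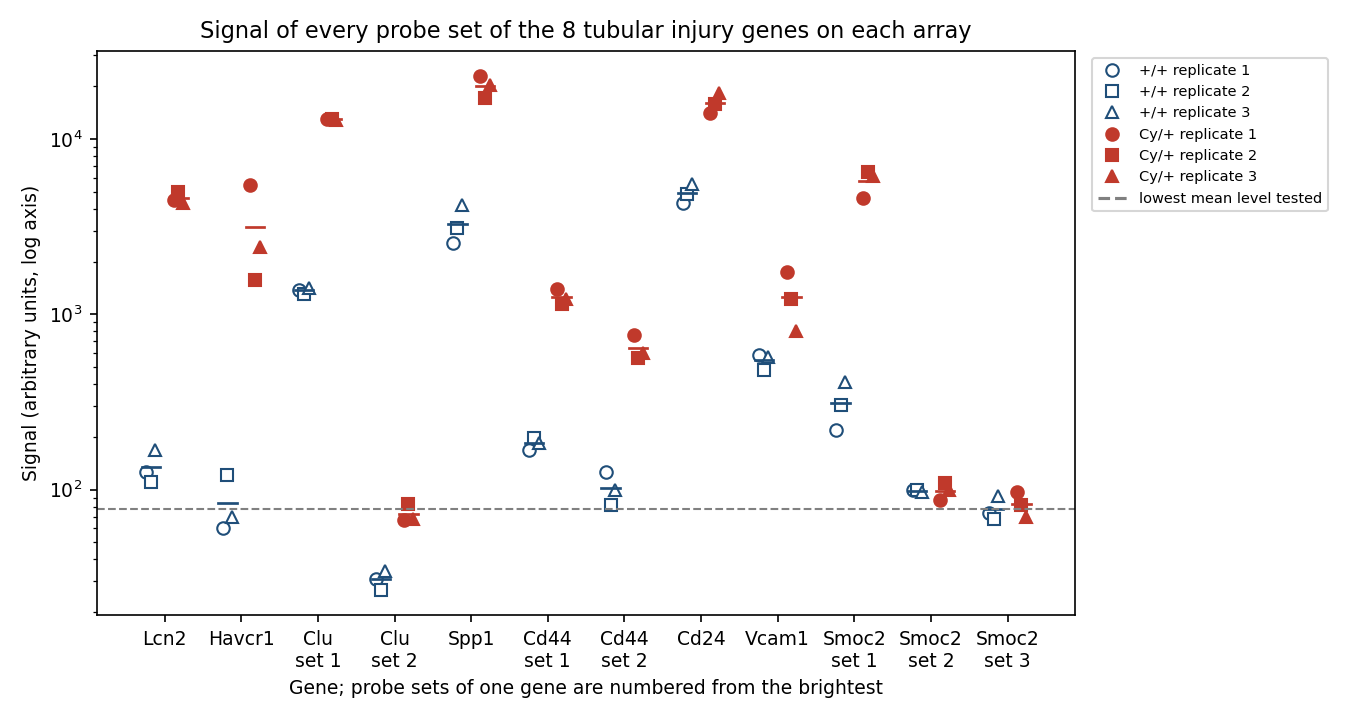
Signal in arbitrary units on a log axis for all 12 probe sets of the 8 genes; open blue symbols are +/+ arrays, filled red symbols Cy/+ arrays, symbol shape gives the replicate number, short lines are group means and the dashed line is the mean signal of 77.8 below which probe sets were not tested. The Cy/+ arrays lie above the +/+ arrays for every gene by its brightest set, Havcr1 spreads from 1578 to 5431 in Cy/+ kidneys, and sets 2 and 3 of Smoc2 stay near the dashed line in both genotypes.

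Among the secreted markers, Lcn2 had signals of 126.3, 110 and 167.9 on the +/+ arrays 1 to 3 and of 4504, 4998 and 4296 on the Cy/+ arrays. The Cy/+ arrays were close together, and the lowest of them was 25.6 times the highest +/+ array. The fold change was 34.6 (95% interval 26.7 to 44.9), or 5.11 on the log2 scale with a standard error of 0.16 (adjusted p = 1.36e-05 from limma).

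Clu had signals of 1373, 1310 and 1421 in +/+ and of 13030, 12950 and 12840 in Cy/+ kidneys. This was the tightest of the 8 genes in both genotypes, and its Cy/+ arrays lay between 12840 and 13030. Its fold change was 9.46 (95% interval 8.47 to 10.6; adjusted p = 2.27e-06 from limma). A second Clu probe set gave 31.05, 26.86 and 34.25 in +/+ and 67.51, 83.14 and 68.1 in Cy/+ kidneys. The means of that set lay below the level for testing in both genotypes, though its arrays did not overlap. With no filter its log2 fold change was 1.25, against 3.24 by the brightest set.

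Spp1 had signals of 2565, 3110 and 4210 in +/+ and of 22760, 17070 and 20290 in Cy/+ kidneys. The +/+ arrays spread more than the Cy/+ arrays, and the lowest Cy/+ array was 4.05 times the highest +/+ array. The fold change was 6.17 (95% interval 4.52 to 8.43; adjusted p = 5.03e-05 from limma).

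Smoc2 had 3 probe sets that disagreed. The brightest gave 220, 304.7 and 410.8 in +/+ and 4623, 6507 and 6180 in Cy/+ kidneys, an 18.9-fold difference (95% interval 12.8 to 27.8; adjusted p = 2.54e-05 from limma). The lowest Cy/+ array of this set was 11.3 times the highest +/+ array. Sets 2 and 3 had mean signals of 98.8 and 78.0 in +/+ and of 98.5 and 83.1 in Cy/+ kidneys, close to the level for testing, and their arrays overlapped. Set 2 had a fold change of 0.994 (95% interval 0.834 to 1.18; adjusted p = 0.944 from limma), and set 3, whose +/+ mean lay just below the level, did not pass either (adjusted p = 0.64 from limma). The platform annotation gives all 3 sets to Smoc2, and the transcript parts they bind are not given in the sources used here. With the mean of the 3 sets the log2 fold change of Smoc2 was 1.44, against 4.24 by the brightest, and without probe sets that can bind several transcripts, where set 2 stands for the gene, it was -0.0092 (adjusted p = 0.944 from limma).

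Among the surface receptors, Havcr1 had signals of 60.69, 120.8 and 69.56 in +/+ and of 5431, 1578 and 2420 in Cy/+ kidneys. The +/+ arrays lay around the level for testing, and the Cy/+ arrays spread over 3.44-fold, with replicate 1 the highest. The fold change was 34.4 (95% interval 16.2 to 72.9), with the widest interval of the 8 genes, and the lowest Cy/+ array was still 13.1 times the highest +/+ array (adjusted p = 0.000105 from limma). The standard deviation of its log2 signal over the Cy/+ arrays was 0.91, above that of 98.6% of all genes tested. Without Cy/+ replicate 1 its log2 fold change was 4.61, against 5.10 with all arrays.

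Cd44 was measured by a pair of probe sets that gave like values. The brighter had signals of 168.7, 196.7 and 184.5 in +/+ and of 1395, 1145 and 1218 in Cy/+ kidneys. The other had signals of 126, 81.84 and 99.62 in +/+ and of 764.4, 563.2 and 603 in Cy/+ kidneys. By both sets Cy/+ replicate 1 was the highest and no arrays overlapped. The fold changes were 6.82 (95% interval 5.72 to 8.14; adjusted p = 1.38e-05) and 6.32 (95% interval 4.67 to 8.56; adjusted p = 4.53e-05), both from limma.

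Cd24 had signals of 4319, 4842 and 5565 in +/+ and of 14120, 15780 and 18330 in Cy/+ kidneys. The groups lay apart, and the lowest Cy/+ array was 2.54 times the highest +/+ array. The fold change was 3.27 (95% interval 2.65 to 4.05; adjusted p = 5.74e-05 from limma), and with arrays centred on the poly-A controls the log2 fold change of 1.71 became 0.22 and did not pass (adjusted p = 0.499 from limma).

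Vcam1 had signals of 589, 480.4 and 568.4 in +/+ and of 1739, 1230 and 803.4 in Cy/+ kidneys. The gap between the groups was narrow, with Cy/+ replicate 3 at 1.36 times the highest +/+ array, and the Cy/+ arrays spread over 2.16-fold. The fold change was 2.20 (95% interval 1.44 to 3.37; adjusted p = 0.0066 from limma). This was the smallest change of the 8, and it depends on the scaling: the log2 fold change of 1.14 was 0.16 with arrays centred on the hybridization controls (adjusted p = 0.648) and -0.35 on the poly-A controls (adjusted p = 0.281), both from limma.

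**Figure D2:**
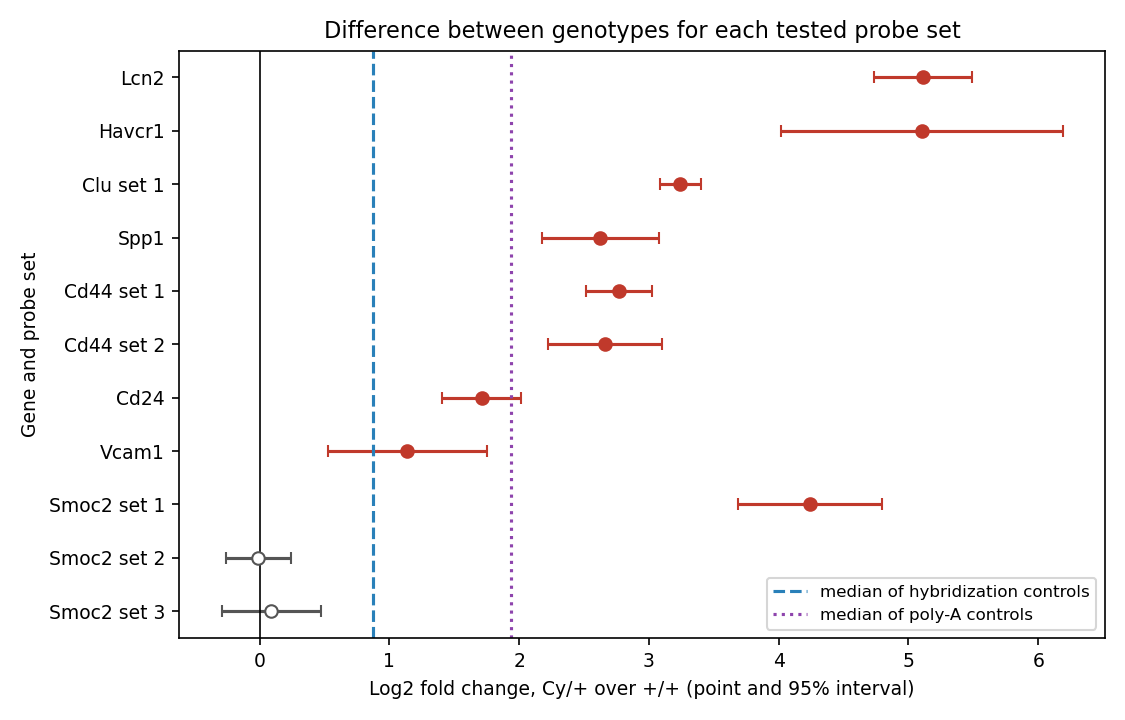
Log2 fold change, Cy/+ over +/+, of the 11 tested probe sets with 95% intervals from limma; filled red points passed the threshold, open points did not, and vertical lines mark the median log2 fold change of the hybridization controls (0.87) and of the poly-A controls (1.93). Lcn2, Havcr1 and the brightest Smoc2 set lie farthest to the right, the interval of Vcam1 spans the hybridization line, and the other Smoc2 sets lie at 0.

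Spread between arrays differed by gene and did not follow 1 array. Cy/+ replicate 1 was the highest of the Cy/+ arrays for Havcr1, Clu, Spp1, Cd44 and Vcam1, replicate 2 for Lcn2 and Smoc2, and replicate 3 for Cd24. In +/+ kidneys replicate 3 was the highest for 5 of the 8 genes. The median standard deviation of log2 signal over the 8 genes was 0.20 in Cy/+ and 0.25 in +/+ kidneys, where all tested genes had medians of 0.16 and 0.083. Among +/+ arrays Havcr1 (0.53), Smoc2 (0.45), Spp1 (0.36) and Lcn2 (0.31) had the largest standard deviations of the 8, and Clu, at 0.059, lay below the median of all genes.

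For each of the 8 genes the most similar patterns over the 6 arrays were sought among 10644 other genes, as the smallest root mean square difference of log2 signals centred on the +/+ mean. Nearest to Lcn2 were Gabrp (0.28) and Eppk1 (0.36), to Havcr1 Car3 (0.39) and Pla2g2a (0.48), and to Smoc2 Gpx2 (0.36) and Lamb3 (0.38). Nearest to Clu were Ptprz1 (0.11) and Upk3bl1 (0.15), to Cd44 Clmp (0.10) and Fstl3 (0.12), and to Spp1 Fstl3 (0.16) and the intermediate filament gene Vim (0.18). Nearest to Cd24 were Bzw2 (0.085) and Tmem132a (0.093), and to Vcam1 the complement gene C1qa (0.085) and Ugcg (0.091). With strong change between genotypes in many genes these differences describe 6 arrays, and none of the 8 genes was among the 2 nearest of another. The +/+ means of Eppk1, Car3, Pla2g2a, Ptprz1 and Lamb3 lay below the level for testing. These genes entered the search only because of their Cy/+ signals, and nothing is read from their nearness. Car3, for example, had signals of 43.6 ± 3.3 (SD, n = 3) in +/+, below the level for testing, and of 1956 ± 1276 (SD, n = 3) in Cy/+ kidneys, at least 21.4-fold higher on the scale of mean log2 signals.

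Of 40 listed receptors, ligands, proteases and linkers, 27 were tested, and in Cy/+ kidneys 13 rose, 7 fell and the other 7 did not pass the test. These counts stand beside 37.4% of all genes higher and 29.3% lower, and the median log2 fold change of the list was 0.19. The largest rises were those of Mmp14, a membrane protease that cleaves CD44, at 4.02-fold, of Axl, a receptor tyrosine kinase of dead-cell uptake, at 3.98-fold, and of Itga9, the integrin chain that binds osteopontin and VCAM1, at 3.64-fold (adjusted p = 2.47e-05, 0.000177 and 2.48e-05 from limma). On the poly-A controls these rises no longer passed, with log2 fold changes of 0.52 for Mmp14, 0.50 for Axl and 0.38 for Itga9. As deposited, a second Mmp14 probe set was higher by less than the brightest, at 1.75-fold. Itgb3, the beta chain of an osteopontin receptor, had signals of 75.79, 62.89 and 72.44 in +/+ and of 225.5, 140.7 and 130 in Cy/+ kidneys. The Cy/+ mean was at least 2.06-fold higher. Its +/+ mean lay below the level for testing, so Itgb3 was tested only because of its Cy/+ signals. It counts among the 13 that rose, but nothing is read from its passing. Of the other integrin chains in the list, Itgb6 was 2.10-fold, Itgb7 1.97-fold and Itgb1 1.69-fold higher. Itgav was 1.45-fold higher by its brightest probe set, while set 2 of Itgav did not pass (log2 fold change -0.085) and set 3 was lower (-0.81). The chains Itga5, Itgb5 and Itga8 did not pass. Centring on the poly-A controls turns the direction of Itgb3, Itgb6, Itgb7, Itgb1 and Itgav, and centring on the hybridization controls that of Itgb7, Itgb1 and Itgav.

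The largest falls in that list were those of Lrp2, Mif, Adam10 and Vldlr. Lrp2, which encodes megalin, the endocytic receptor that recovers lipocalin 2 and clusterin from the filtrate, had signals of 7868, 8325 and 7822 in +/+ and of 4349, 1646 and 3453 in Cy/+ kidneys. Cy/+ replicate 2 was the lowest and no arrays overlapped (-1.46 on the log2 scale, standard error 0.32, adjusted p = 0.00581 from limma). Mif, whose product signals through CD74 and CD44, had a log2 fold change of -1.32, the sheddase gene Adam10 one of -1.03 and the lipoprotein receptor gene Vldlr one of -1.02 (adjusted p = 0.00016, 0.000848 and 0.000838 from limma). Slc22a17, the gene of another lipocalin 2 receptor, had signals of 443.4, 527.1 and 457.7 in +/+ and of 440.7, 438.1 and 456.9 in Cy/+ kidneys, and did not pass (log2 difference -0.093, limma adjusted p = 0.408). Mmp9, whose product forms a complex with lipocalin 2, had signals of 111.4, 98.98 and 117.1 in +/+ and of 41.43, 68.22 and 40.48 in Cy/+ kidneys, and was not tested because its mean lay below the level.

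Of 35 other listed genes of tubular injury and repair, 31 were tested, and 22 rose, 2 fell and the other 7 did not pass the test. Of all genes 37.4% were higher and 29.3% lower. Atf3, among the 22, had a +/+ mean below the level and was tested only because of its Cy/+ signals. The median log2 fold change of the list was 1.98, and on the poly-A controls 14 of its genes were higher and 10 lower. Krt19, a keratin of simple epithelia, had signals of 122.5, 213.2 and 163.7 in +/+ and of 2750, 7245 and 5963 in Cy/+ kidneys, 30.3-fold higher (adjusted p = 5.66e-05 from limma). The complement gene C3 was 11.2-fold, the calcium-binding protein gene S100a6 8.48-fold and the keratin gene Krt18 7.03-fold higher (adjusted p = 1.36e-05, 4.1e-05 and 0.000964 from limma). Cy/+ replicate 1, the highest array for Havcr1, was the lowest Cy/+ array for Krt19, C3 and Krt18, and replicate 3 for S100a6.

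The 2 lower genes were Tff3 and Gdf15. Tff3, which encodes a secreted trefoil peptide, had signals of 12940, 16570 and 13480 in +/+ and of 2401, 1454 and 6700 in Cy/+ kidneys (-2.32 on the log2 scale, standard error 0.50, adjusted p = 0.00499 from limma). Gdf15, which encodes a stress-induced cytokine, fell by 0.91 on the log2 scale (standard error 0.11, adjusted p = 0.000374 from limma). For both genes every Cy/+ array lay below every +/+ array. Krt20, Fgb and Fgg lay below the level for testing, and Sox9 had no probe set of its own. B2m, the gene of the urinary marker beta-2-microglobulin, did not pass by its brightest probe set (log2 fold change -0.026), while set 2 was higher (adjusted p = 6.97e-05 from limma).

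Of the SPARC family, to which Smoc2 belongs, 4 of 7 genes were tested and 1 was higher. That share of 25% is below the 37.4% of all genes higher, so the count is not read as a result about the family. The higher gene was Fstl1, with signals of 1057, 945.9 and 1304 in +/+ and of 3811, 3994 and 4043 in Cy/+ kidneys. It was 3.61-fold higher (adjusted p = 3.92e-05 from limma). One of its other probe sets was also higher (log2 fold change 1.39), and set 3 did not pass (-0.091). Sparcl1, Smoc1 and, by its brightest set, Sparc did not pass, while a second Sparc set was higher (1.92). Without +/+ replicate 3 there were 2 genes higher, and without Cy/+ replicate 1 there was 1 lower.

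Of 24 listed transcription factors and inhibitors known to act on injury genes, 20 were tested, of which 16 were higher, none was lower and 4 did not pass by limma (Cebpb, Hsf1, Jun and Hif1a), beside 37.4% of all genes higher and 29.3% lower. Their median log2 fold change was 1.23. Jun did not pass by its brightest probe set, but another set was higher (log2 fold change 0.74, adjusted p = 0.00445 from limma) and a further set did not pass (0.29). Fosl2, higher by its brightest set, did not pass by its other set (0.039). Runx1, a factor of blood formation, had signals of 105.1, 94.94 and 126.4 in +/+ and of 1368, 1306 and 950 in Cy/+ kidneys. The log2 difference was 3.46 (limma adjusted p = 2.14e-05). Its second probe set had a +/+ mean below the level and was tested only because of its Cy/+ signals. The Cy/+ mean of that set was at least 3.46-fold higher, and nothing is read from its passing. Klf6, a zinc-finger factor of the early injury response, was 5.06-fold and Nfkb2, an NF-kB subunit gene, 3.55-fold higher (adjusted p = 2.08e-05 and 4.32e-05 from limma). Nfkbiz, which encodes a nuclear co-regulator of NF-kB needed for Lcn2 induction in other tissues, was 8.40-fold higher by its brightest probe set (adjusted p = 5.84e-05 from limma) and lower by the other (log2 fold change -0.47). Of the remaining NF-kB genes, Relb (log2 fold change 1.45), Nfkb1 (1.13), Rela (0.85) and the inhibitor gene Nfkbia (1.32) were higher, as was Stat3 (1.58). With arrays centred on the poly-A controls 3 regulators were higher and 8 lower, every log2 fold change fell by 1.49, and those of Relb, Nfkb1, Rela and Nfkbia turned below 0, as that of Rela did on the hybridization controls.

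Markers of the kidney's cell types differed in direction, with those of the proximal tubule lower and those of macrophages higher in Cy/+ kidneys. The counts below stand beside 37.4% of all genes higher and 29.3% lower. All 21 tested markers of the proximal tubule, of 22 listed, were lower (median -2.67 on the log2 scale), and their summed signal was 154818 to 164686 in +/+ and 19778 to 47582 in Cy/+ kidneys. Among the 21, Slc5a12 had a Cy/+ mean below the level and was tested only because of its +/+ signals. Sums here add probe sets that are not on a common scale, so they weigh bright sets most and are compared only between genotypes. All 13 tested macrophage markers, of 14 listed, were higher, with a median of 1.19 that turns below 0 on the poly-A controls. Among the 13, Mrc1 had a +/+ mean below the level and was tested only because of its Cy/+ signals. The summed signal of the 13 was 10137 to 11477 in +/+ and 19568 to 29549 in Cy/+ kidneys, of which Lyz2 made up 8749 to 11300. Of 12 listed lymphocyte markers 5 were tested, Cd3g, Cd3d, Cd3e, Lck and Cd2, with a sum of 384 to 446 in +/+ and of 952 to 1799 in Cy/+ kidneys. The +/+ means of Cd3g, Cd3d and Cd3e lay below the level, so these genes were tested only because of their Cy/+ signals, and nothing is read from their number. The part of these cells in the fold changes was not tested.

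Neutrophils store lipocalin 2, and of 10 listed neutrophil markers 1 was tested, S100a9, with signals of 54, 57.93 and 57.52 in +/+ and of 65.42, 116.3 and 191.8 in Cy/+ kidneys. Mpo, Elane, Ltf and Ngp had no probe set of their own, and S100a8, Csf3r, Cxcr2, Fcnb and Camp had means below the level for testing. The +/+ mean of S100a9 lay below the level, so this gene too was tested only because of its Cy/+ signals, and nothing is read from its passing. Its Cy/+ mean was at least 1.46-fold higher, a direction that turns on the poly-A controls, where every log2 fold change fell by 1.49. Of 10 tested fibroblast and smooth muscle markers 7 were higher and 3 did not pass, beside 37.4% of all genes higher and 29.3% lower. The sums of these 10 markers were 8559 to 9960 in +/+ and 20725 to 39475 in Cy/+ kidneys. Their median log2 fold change of 1.29 turns below 0 on the poly-A controls. Of 9 tested endothelial markers, cells that can carry Vcam1, 5 were lower and none was higher, with sums of 8493 to 9270 in +/+ and of 4587 to 6133 in Cy/+ kidneys. Of 9 tested markers of the distal tubule from the thick ascending limb on, where Spp1 and Cd24 are expressed in health, 3 were higher and 3 lower, and of 11 of the collecting duct 2 were higher and 1 lower. Of 5 podocyte markers 1 was higher and 4 were lower. All these counts stand beside the same shares of all genes. The share higher was 33.3% in the distal tubule list and 18.2% in the collecting duct list, below that of all genes, and nothing is read from it.

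**Figure D3:**
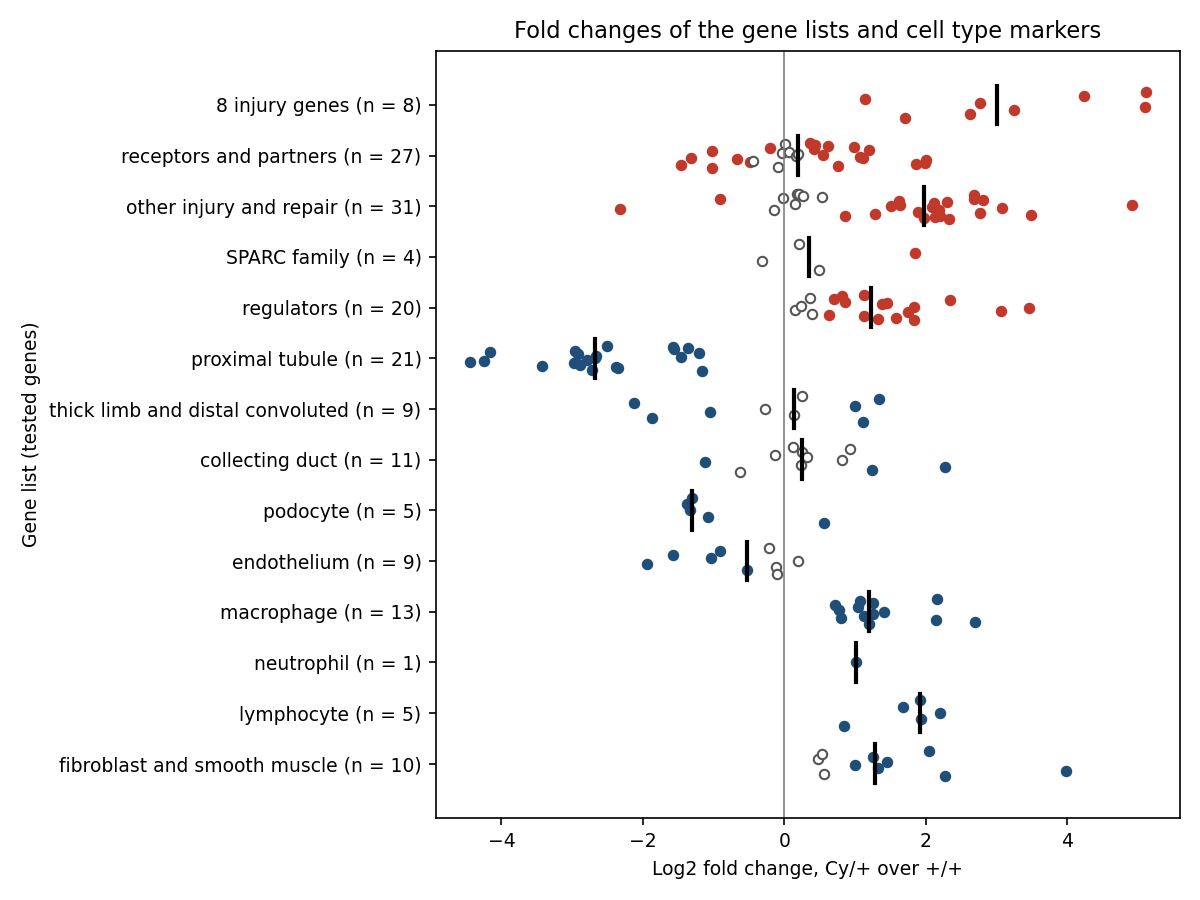
Log2 fold change, Cy/+ over +/+, of each tested gene in the 8 injury genes, 4 related gene lists (red) and 9 lists of cell type markers (blue); filled points passed the threshold of limma, open points did not, vertical offsets within a row carry no value and black bars are medians. The 8 injury genes lie from 1.14 to 5.11 with a median of 3.01, the receptors and partners lie on both sides of 0, and the proximal tubule markers all lie below 0.

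The scaling of the arrays moved the size of each change, and the direction of Vcam1 alone. With arrays centred on the hybridization controls, which moves the median log2 fold change of all probe sets by -0.98, 7 of the 8 genes were higher, and with arrays centred on the poly-A controls, which moves it by -1.49, 6 were. The share of all genes called higher was 4.53% and 2.1% under these scalings. Lcn2 and Havcr1 then had log2 fold changes of 4.13 and 4.12 on the hybridization controls and of 3.62 and 3.61 on the poly-A controls. Quantile normalization and centring on the median left all 8 genes higher.

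**Figure D4:**
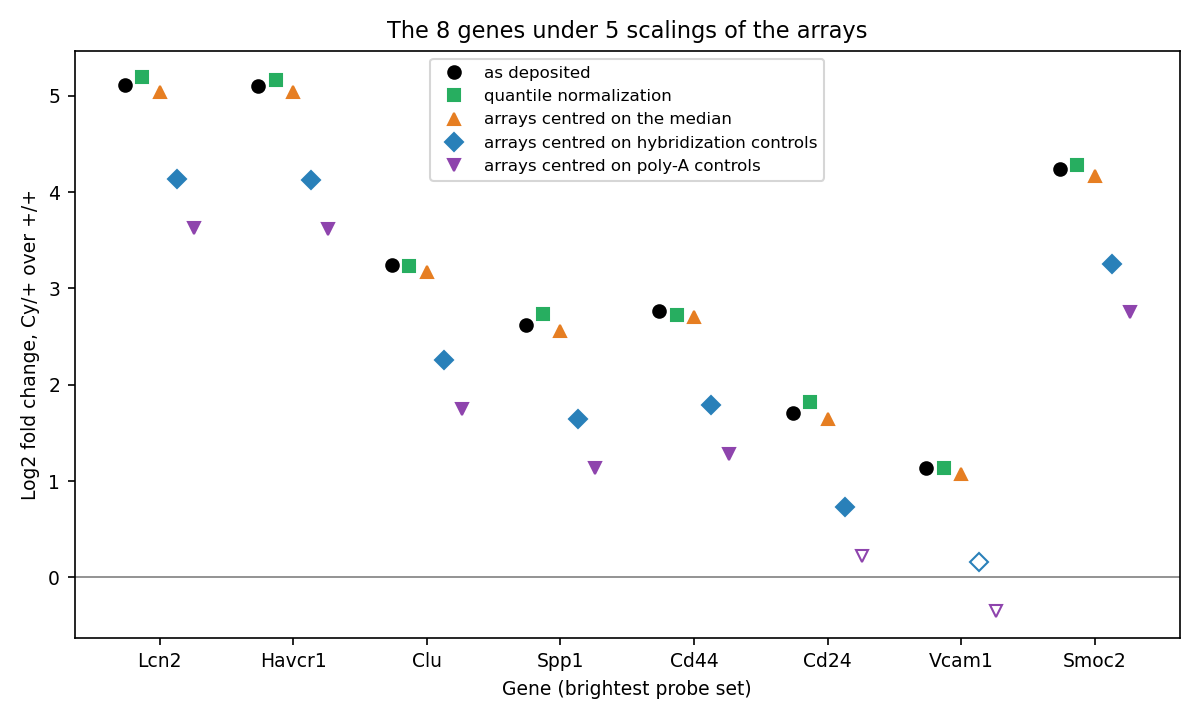
Log2 fold change, Cy/+ over +/+, of the brightest probe set of each gene under 5 scalings of the arrays; filled symbols passed the threshold of limma and open symbols did not. Only Vcam1 crosses 0, at -0.35 on the poly-A controls, and Cd24 is at 0.22 there, while Lcn2 stays at or above 3.62.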

How the data were processed

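Kidney RNA of 3 Cy/+ and 3 +/+ rats was hybridized to rat genome 230 2.0 oligonucleotide arrays, 1 per sample. The authors labelled cRNA in one cycle and read the scans with GCOS software. MAS5 is the tool in the submitters' processing notes. Linear signal intensity per probe set was deposited (10.65 to 32240), whose exact scaling between arrays is not given in the sources used here; detection calls were not used. The number of arrays limits the precision.

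Signals were taken to log2 with no further scaling. The 57 control probe sets were left out of the tests, and 18625 probe sets whose mean log2 signal reached the 40th percentile (6.28, a signal of 77.8, called the level for testing) entered a limma fit (version 3.58.1, R version 4.3.3, eBayes with an intensity trend, no covariate), with Benjamini-Hochberg adjustment over all of them and a threshold of 0.05. The fit was tested on simulated data. Symbols come from the platform annotation, updated by Entrez ID for 20764 of 20832 probe sets with 1 symbol; 436 with several symbols and 9831 with none named no gene. A gene was represented by its brightest tested probe set. Where 1 genotype mean lay below the level for testing, a bound, the brighter mean over the level, is given. In each related list the 4 largest rises and falls past the threshold are named, with the 2 nearest patterns per gene; other genes were named after their values were seen. The 8 genes, the lists and the motifs were chosen with earlier results of these data known. The alternatives covered scaling, floor, pseudocount, filters, variance model, the methods' test, replicate number, probe set choice and leaving out each array. Correlations of deviations between arrays of the same replicate number were 0.15, -0.11 and -0.15. Arrays of unlike number were not compared in this way, so these values do not settle whether the numbers pair the samples.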

Additional observations from a re-analysis of the deposited data

Results flagged for a closer look

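The hybridization and poly-A control probe sets, which measure no rat RNA and were left out of the tests between genotypes, had signal that was higher in Cy/+ than in +/+ samples. All 18 probe sets of hybridization controls were brighter on every Cy/+ array, by 1.83-fold in the median, as were all 24 of poly-A controls, by 3.82-fold. Their part in the fold changes of the injury genes was not tested. Groups of 3 arrays are too small for a test of single outlying arrays.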

How the results depend on the processing

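Each of the 8 injury genes had up to 20 alternatives. Lcn2, Havcr1, Clu, Spp1 and Cd44 stayed higher and past the threshold in every alternative that gave a value, with log2 fold changes of 3.62 to 5.28, 3.61 to 5.50, 1.75 to 3.27, 1.14 to 2.82 and 1.28 to 2.83. Leaving out any 1 array kept all 8 genes higher, with 4.98 to 5.28 for Lcn2, 4.61 to 5.50 for Havcr1, 1.61 to 1.81 for Cd24, 0.87 to 1.43 for Vcam1 and 4.01 to 4.46 for Smoc2. Without probe sets that can bind several transcripts, Spp1, Cd44 and Cd24 had none left and that of Clu was below the level, so 3 of 4 genes were higher and Smoc2 was at -0.0092.

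With arrays centred on the hybridization controls, Vcam1 was at 0.16 and no longer passed, 3 partners were higher and 14 lower, 8 other injury genes were lower, 2 genes of the SPARC family were lower, and 6 regulators were higher and 2 lower. With arrays centred on the poly-A controls, Cd24 was at 0.22 and no longer passed, Vcam1 turned to -0.35 and Itgb3 to -0.30, 0 partners were higher and 20 lower, 14 other injury genes were higher and 10 lower, 0 genes of the SPARC family were higher and 3 lower, and 3 regulators were higher and 8 lower. Of all called probe sets 53.3% were higher as deposited (6661 higher, 5830 lower), 6.2% on the hybridization controls (795 and 12023) and 2.3% on the poly-A controls (370 and 15735). The cause was not tested.

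The dim Smoc2 sets changed sign with the setting. Set 2 was at 0.011 with array weights and from -0.086 to 0.073 with 1 array left out (0.073 without Cy/+ replicate 1). On the hybridization and poly-A controls set 2 was at -0.99 and -1.50, and set 3 at -0.89 and -1.40. In the SPARC family the count higher was 2 with probe sets averaged per gene and 1 to 2 with 1 array left out, and the count lower 1 with no filter, array weights or that average and 0 to 1 with 1 array left out. With the filter at the 60th percentile 1 other injury gene was lower. The replicate number as a block changed no call of the 8 genes, with Vcam1 at 1.14 (adjusted p = 0.00679 from limma) and 8 of 8 higher; its counts of probe sets were 6293 higher and 5340 lower. The methods' test with Benjamini-Hochberg adjustment also gave 8.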
